A study of Mus musculus with 2 samples.

Results

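The enteroendocrine transcription factors described here are 9 genes, Neurog3, Neurod1, Insm1, Pax4, Pax6, Isl1, Nkx2-2, Fev and Lmx1a. They were taken by symbol, and all 9 were found among the 31205 gene symbols of the matrix. The series profiled single cells of duodenal crypts from wild-type mice under a title that speaks of chronic stress. There are 2 groups, which the labels call ES and NT without spelling the letters out, each pooled from 5 animals into 1 library, so nothing can be tested between them. Both libraries lie in 1 matrix, whose barcodes end in 2 or 1. No label ties an ending to ES or NT, so every value is given for barcode suffix 2 and barcode suffix 1, and a difference between them is a difference between these libraries.

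Enteroendocrine cells are the hormone-secreting cells of the gut lining. They arise from crypt progenitors that briefly express Neurog3, a basic helix-loop-helix factor needed for the lineage in mice. Neurod1, a related factor, and Insm1, a zinc finger repressor, follow it. The paired-box factors Pax4 and Pax6, the homeodomain factor Nkx2-2, the LIM-homeodomain factors Isl1 and Lmx1a, and the ETS factor Fev act in the choice and upkeep of hormone programs. Lmx1a and Fev are known from serotonin-producing cells, the enterochromaffin cells of the gut, and Isl1 from peptide-hormone cells. The chromogranins Chga and Chgb are packing proteins of the secretory granules.

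The promoters of the lineage starter Neurog3, of its follower Neurod1, and of Isl1 and Lmx1a, which part the hormone groups below, are shown, since basic helix-loop-helix factors bind the E-box CANNTG, in which N is any base. RefSeq windows of GRCm38.p6, from 250 bases before to 50 after the transcript start, matched 7 of the 9 genes. The sequences run 5′ to 3′ on the gene's strand with each E-box in capitals. They lie at chr10:62132840-62133139 (plus strand) for Neurog3, chr2:79456587-79456886 (minus strand) for Neurod1, chr13:116309639-116309938 (minus strand) for Isl1 and chr1:167689308-167689607 (plus strand) for Lmx1a.
Neurog3: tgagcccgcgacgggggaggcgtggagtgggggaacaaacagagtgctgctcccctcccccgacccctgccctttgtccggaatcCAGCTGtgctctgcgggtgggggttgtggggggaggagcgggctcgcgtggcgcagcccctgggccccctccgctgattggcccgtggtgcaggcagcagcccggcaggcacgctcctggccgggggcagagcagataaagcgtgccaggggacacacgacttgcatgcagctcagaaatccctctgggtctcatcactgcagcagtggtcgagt
Neurod1: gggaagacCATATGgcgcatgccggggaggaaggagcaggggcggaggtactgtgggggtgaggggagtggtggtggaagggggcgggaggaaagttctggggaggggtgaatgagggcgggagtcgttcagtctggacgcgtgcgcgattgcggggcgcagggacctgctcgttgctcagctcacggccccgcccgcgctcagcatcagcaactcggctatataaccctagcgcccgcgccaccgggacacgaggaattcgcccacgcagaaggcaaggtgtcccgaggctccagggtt
Isl1: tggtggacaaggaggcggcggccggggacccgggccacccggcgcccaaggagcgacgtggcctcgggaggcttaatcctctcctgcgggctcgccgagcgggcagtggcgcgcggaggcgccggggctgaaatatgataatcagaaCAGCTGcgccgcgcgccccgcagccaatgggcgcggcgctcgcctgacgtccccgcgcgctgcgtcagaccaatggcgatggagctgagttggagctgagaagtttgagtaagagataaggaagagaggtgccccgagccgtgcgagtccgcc
Lmx1a: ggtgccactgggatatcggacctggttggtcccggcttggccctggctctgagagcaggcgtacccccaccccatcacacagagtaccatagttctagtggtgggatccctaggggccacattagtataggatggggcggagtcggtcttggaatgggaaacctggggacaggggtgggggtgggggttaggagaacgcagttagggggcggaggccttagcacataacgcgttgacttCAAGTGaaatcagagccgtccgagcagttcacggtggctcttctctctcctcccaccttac
Each of these 4 windows held 1 E-box, CAGCTG in Neurog3 and Isl1, CATATG in Neurod1 and CAAGTG in Lmx1a. CANNTG reads the same on both strands and was found in 72.3% of 32544 promoter windows, and CAGCTG in 16.4%, so a match does not set these genes apart. The Nkx2-2 window held 3 E-boxes and the Fev window 0.

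On mm10 the genes lie at chr10:62133090-62134763 (Neurog3), chr2:79452521-79456751 (Neurod1), chr2:146221921-146225020 (Insm1), chr6:28442334-28449353 (Pax4), chr2:105668900-105697364 (Pax6), chr13:116298281-116309689 (Isl1), chr2:147177546-147194243 (Nkx2-2), chr1:74881509-74885419 (Fev) and chr1:167689237-167848741 (Lmx1a), in the GENCODE M21 annotation. Neurog3 overlaps Fam241b on the opposite strand, and Neurod1 overlaps Cerkl on its own strand. Fam241b had 90 and 61 UMIs (unique molecular identifiers, each counted as 1 captured RNA molecule) in the chromogranin-high cells of suffix 2 and suffix 1, and Cerkl had 23 and 10. The sources used here do not say whether strand was used in counting, so reads shared with these partners cannot be told apart.

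Cells with at least 5 UMIs of Chga and Chgb together were called chromogranin-high. After filtering there were 130 of them among 3723 cells of suffix 2 (3.49%) and 88 among 4045 cells of suffix 1 (2.18%). Their median depth was 11002 and 11159.5 UMIs, beside 11807 and 10840 in the other cells. Of the 218 cells, 143 lay in the 2 clusters whose markers were enteroendocrine-like and 75 lay in clusters of other kinds. The 39 such outside cells of suffix 2 had a median of 5 chromogranin UMIs at a median depth of 27173 UMIs, and the 36 of suffix 1 had a median of 14.5 chromogranin UMIs at 14347. In the outside cells the 16 enteroendocrine marker genes summed to 352 CPM (summed UMIs of a gene per 1000000 UMIs of the same cells) in suffix 2 and 4416 CPM in suffix 1, and the 8 Paneth markers to 71260.1 and 16748 CPM. Within the enteroendocrine-like clusters the same lists summed to 71468 and 49122 CPM, and to 4512 and 3425 CPM. Fibroblast markers were at 0 UMIs within those clusters in both suffixes. The 2 suffixes shared 40 barcode sequences, of which 13 were among kept cells and 3 among chromogranin-high ones. At the edge of the gate, 299 and 96 cells had 3 to 4 chromogranin UMIs, and 23.7% and 26.0% of them had a UMI of any of the 9 genes. Just inside it, 32 and 2 cells had 5 to 6 chromogranin UMIs, and 31.2% and 0% of them had such a UMI.

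All 9 genes were higher in the chromogranin-high cells than in the other cells in both suffixes. A gene was called higher where its ratio of CPM was at least 2 and the exact 95% interval of the ratio, which covers counting error only, lay off 1 in both suffixes. By that rule 7.92% of 12992 measured genes were higher and 1.22% were lower. The median log2 ratio of the 9 genes was 7.25 in suffix 2 and 7.37 in suffix 1, beside -0.015 and 0.09 over all measured genes. The size of the ratios moved with the cells counted as chromogranin-high, while all 9 stayed above 1 in each set tried. In suffix 2 Neurog3 ran between 11.9 (gate of 3 UMIs) and 70.5 (enteroendocrine-like clusters only), and Lmx1a between 50.1 and 518 under the same settings. By the smaller of their 2 ratios the 9 genes ranked between 16 and 188 of 12992.

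Neurog3, the starter of the lineage, had 47.6 and 77.3 CPM in the chromogranin-high cells of suffix 2 and suffix 1, against 1.55 and 1.76 CPM in the other cells. Its ratios of 30.7 (95% interval 22.2 to 42.7) and 43.8 (32.0 to 60) were the smallest of the 9 in each suffix. Neurod1 had 618 and 653 CPM in the chromogranin-high cells, against 3.64 and 3.80 CPM elsewhere, ratios of 169.9 and 172. Insm1 had 485 and 460.0 CPM there and 8.06 and 8.07 CPM in the other cells, ratios of 60.2 and 57.0. Each of these followers of Neurog3 had a like level in both suffixes.

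Among the paired-box genes, Pax4 had 93.6 and 74.6 CPM in the chromogranin-high cells, against 1.26 and 1.32 CPM in the other cells, ratios of 74.5 and 56.6. Pax6 had 177 and 102 CPM there, against 1.12 and 0.616 CPM, ratios of 158 and 165. Nkx2-2 had 197 and 219 CPM in the chromogranin-high cells and 2.72 and 2.99 CPM in the others, ratios of 72.4 and 73.2.

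Of the remaining factors, Isl1 had 389.7 and 396 CPM in the chromogranin-high cells, against 1.48 and 1.08 CPM in the other cells, ratios of 263 and 366. Fev had 426 and 553 CPM there, against 2.81 and 1.51 CPM, ratios of 152 and 366. Lmx1a had 97.8 and 110.5 CPM there, against 0.427 and 0.170 CPM, ratios of 229 (143 to 389.5) and 650.5 (319.97 to 1540). The wide interval of Lmx1a comes with 19 and 8 UMIs in the other cells of suffix 2 and suffix 1.

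**Figure D1:**
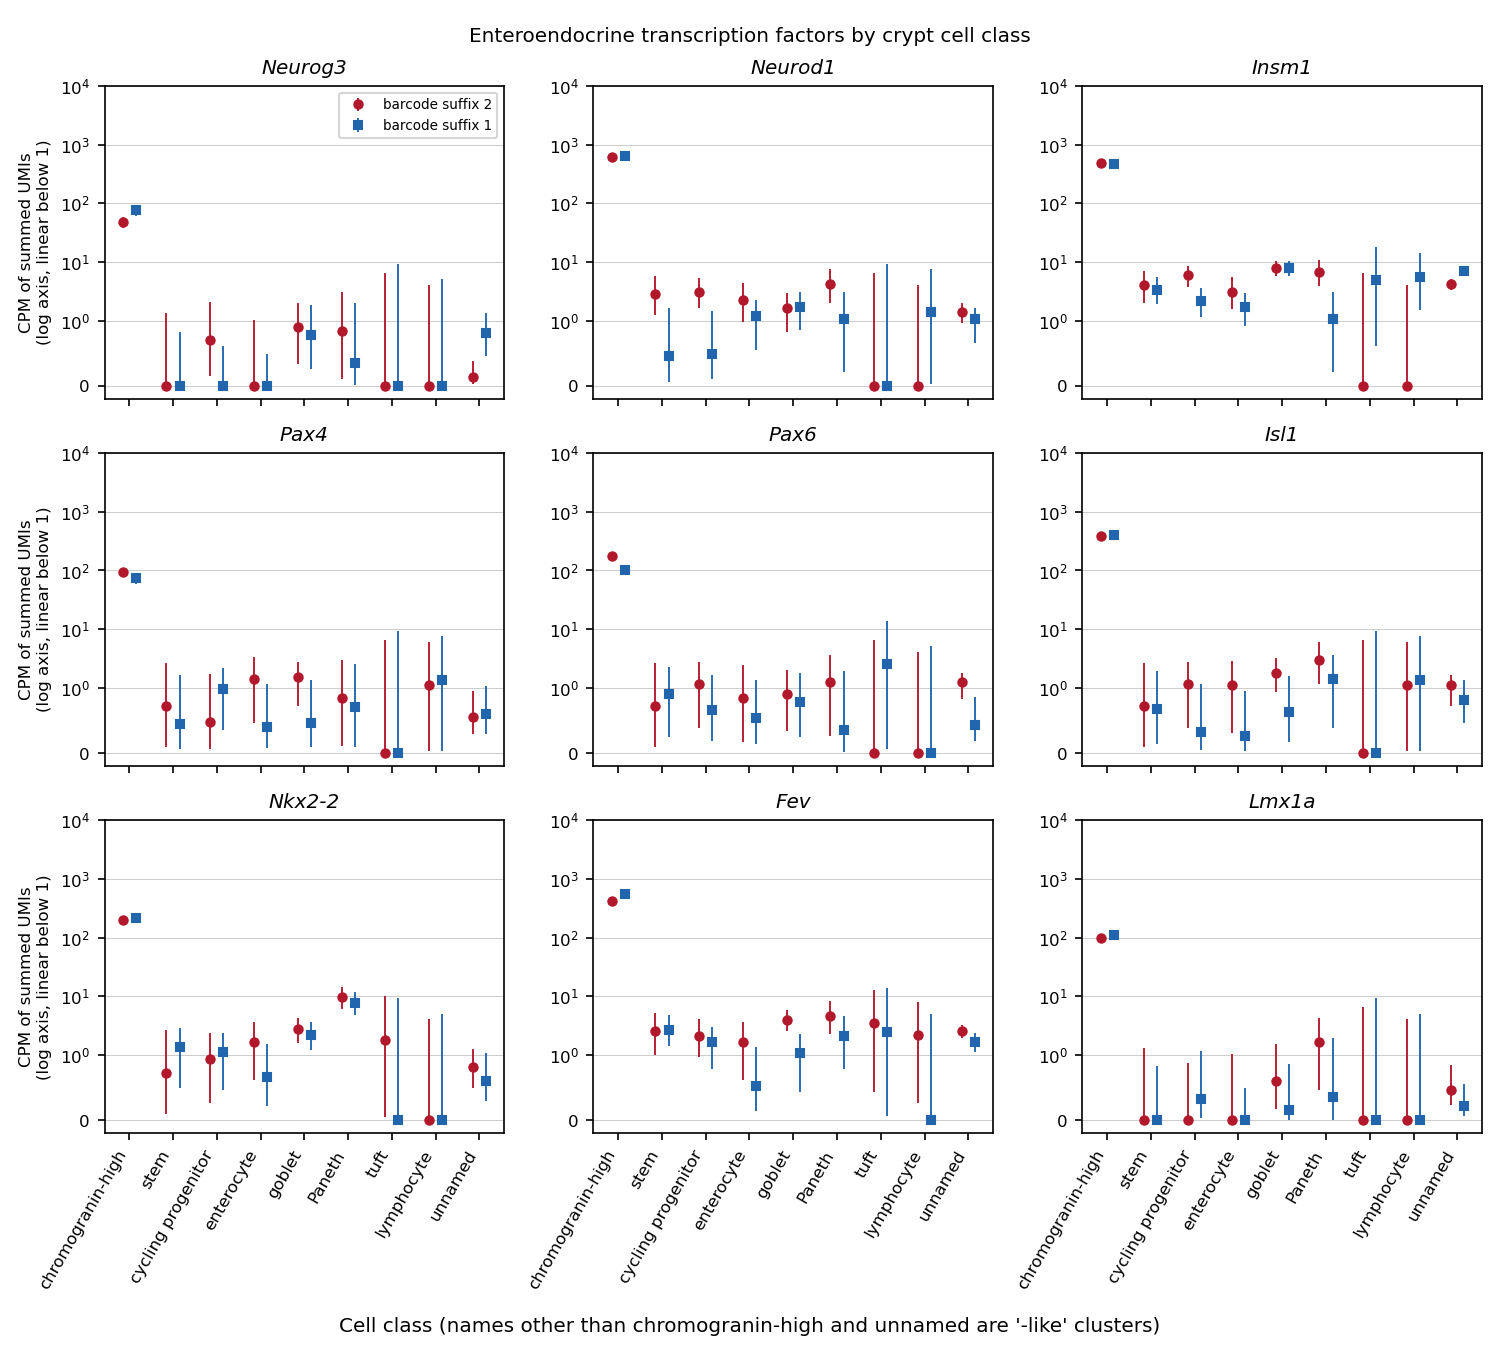
Level of each of the 9 transcription factors in CPM of summed UMIs (log axis, linear below 1) by cell class, for barcode suffix 2 (circles) and suffix 1 (squares) with exact 95% Poisson intervals for counting error. The chromogranin-high cells stand above all other classes in every panel, and Nkx2-2 has its next level in Paneth-like cells.

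The chromogranin-high cells were the highest of the 9 classes plotted for all 9 genes in both suffixes. The share of all genes that are highest in this class was not taken. The 14 and 19 cells of the enteroendocrine-like clusters below the gate are not in that plot, and they carried several of the genes. All 9 genes were among the variable genes that built these clusters, so their levels in these cells are a description. Of these cells 8 and 9 come back below as cells with 2 or more Neurog3 UMIs. Neurog3 stood there at 595 and 369 CPM, against 109 and 144 CPM in the chromogranin-high cells of the same clusters, ratios of 5.45 (3.83 to 7.70) and 2.57 (1.81 to 3.65). Insm1 stood at 1590.4 and 893 CPM, against 1112 and 913 CPM, and Nkx2-2 at 519 and 453 CPM, against 449 and 436 CPM, so neither was apart in both suffixes. Lmx1a had 0 UMIs in the cells below the gate. Among the classes plotted, the second and the next class had overlapping intervals in both suffixes for 8 of the 9 genes. Nkx2-2 was the exception. It had 9.62 CPM (6.10 to 14.4) in Paneth-like cells of suffix 2 and 7.79 CPM (4.88 to 11.8) in those of suffix 1, against 2.72 CPM (1.61 to 4.30) and 2.18 CPM (1.19 to 3.66) in goblet-like cells, the class after them. Paneth cells make antimicrobial peptides at the crypt base. A UMI of Nkx2-2 was found in 10.6% and 9.80% of Paneth-like cells, beside 0% of lymphocyte-like cells in both suffixes, and Nkx2-2 in Paneth-like cells stayed 20.4 and 28.1 times below the chromogranin-high level. Insm1 was next highest in goblet-like cells, the mucus makers, at 7.86 and 7.79 CPM.

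Among the chromogranin-high cells, Neurod1 was detected in 63.8% and 76.1%, Insm1 in 63.8% and 69.3%, Fev in 60% and 69.3% and Nkx2-2 in 51.5% and 58.0%. Fewer cells held Pax6 (46.2% and 29.5%), Isl1 (41.5% and 34.1%), Pax4 (36.9% and 29.5%), Lmx1a (24.6% and 31.8%) and Neurog3 (17.7% and 31.8%). In lymphocyte-like cells, which should lack these genes but were shallower, the share never passed 0.851%. With every cell thinned to 5000 UMIs, which left out 24 and 20 chromogranin-high cells, the shares ran between 16.0% (Neurog3) and 61.3% (Neurod1) in suffix 2 and between 19.1% (Pax4) and 69.1% (Neurod1) in suffix 1. A chromogranin-high cell held a median of 5 of the 9 genes in each suffix and at most 8. None of the 9 was found in 25 of the 130 cells and 8 of the 88 cells. All 25 such cells of suffix 2 lay outside the enteroendocrine-like clusters, as did 7 of the 8 of suffix 1. The 39 outside cells of suffix 2 carried 0 to 3 UMIs of each gene in all, whereas the 36 of suffix 1 carried 95 UMIs of Neurod1, 57 of Isl1 and 54 of Fev. Within the clusters the median was 6 genes per cell in both suffixes.

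Within the enteroendocrine-like clusters the levels of the genes differed along the chromogranin count. These clusters were built from the same genes, so the levels are a description. In the 3 and 7 cells with 0 chromogranin UMIs, Neurog3 stood at 587 CPM (321 to 986) in suffix 2 and 592 CPM (415 to 819) in suffix 1. In cells with 100 or more it stood at 134 CPM (103 to 171) and 89.6 CPM (59.1 to 130.4). Over all chromogranin-high cells a lower chromogranin count did not go with Neurog3. Those with a Neurog3 UMI had a median of 139 and 31 chromogranin UMIs, against 21 and 31 without. Only 68 of the 107 and 30 of the 60 cells without one lay in these clusters, against 23 of 23 and 22 of 28 with one. These medians therefore compare unlike mixes of cells. Insm1 had its highest level, 2895 and 1562 CPM, at 0 chromogranin UMIs too, and 1199 and 846 CPM at 100 or more. Neurod1 and Nkx2-2 were present along the whole range, Neurod1 between 755 and 2021 CPM in suffix 2 and between 747 and 1627 CPM in suffix 1.

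Pax4 was present at 0 chromogranin UMIs too, with 1 UMI in the 3 cells of suffix 2 and 21 UMIs, or 345 CPM, in the 7 cells of suffix 1. Fev, Isl1, Lmx1a and Pax6 had 0 UMIs in these cells. Whether the chromogranin count follows an order in time was not tested. Fev had 727 and 872 CPM at 10 to 99, and 1215 and 1258 CPM at 100 or more. Isl1 was highest at 10 to 99 with 1572 and 1689.8 CPM, and had 454 and 39.8 CPM at 100 or more. Lmx1a had 0 UMIs below 10 chromogranin UMIs, 9.86 and 4.87 CPM at 10 to 99, and 373 and 375 CPM at 100 or more. Pax6 had 503 and 239 CPM at 10 to 99. The chromogranin count also differed between the hormone groups described next, with a median of 517 and 399.5 UMIs in cells positive for Tph1 or Tac1 only and 51.5 and 24 UMIs in cells positive for another peptide hormone only. Place along the count and hormone group cannot be told apart here. The bins below 10 hold between 3 and 12 cells in each suffix. The 0 UMIs in cells without chromogranin UMIs allow up to 126 and 49.3 CPM.

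**Figure D2:**
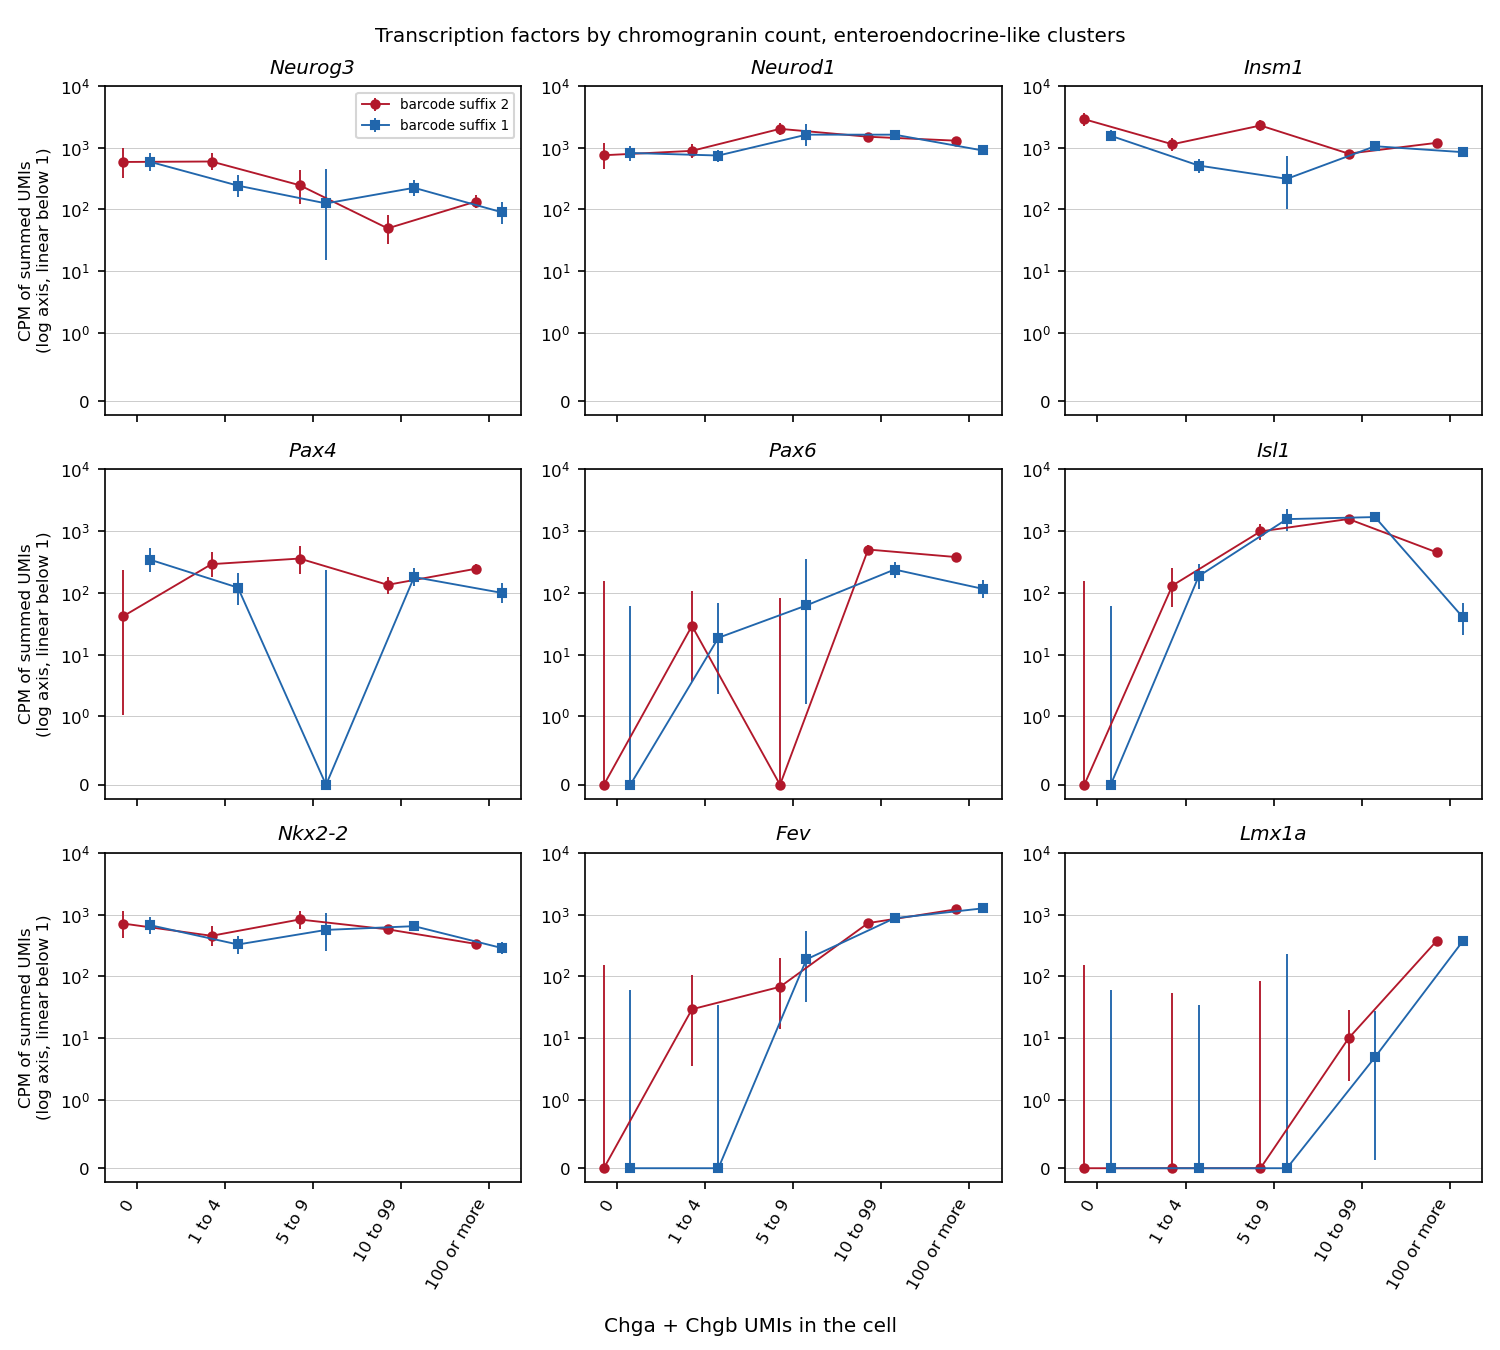
Level of each transcription factor in CPM of summed UMIs (log axis, linear below 1) against the chromogranin count of the cell, in the enteroendocrine-like clusters, for suffix 2 (circles) and suffix 1 (squares) with exact 95% Poisson intervals. Neurog3 stands near 590 CPM at 0 chromogranin UMIs in both suffixes. Lmx1a stands at 373 and 375 CPM at 100 or more and had 0 UMIs below 10.

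Hormone content divided the 9 genes further. A cell was called positive for a hormone at 5 or more UMIs. Tph1, the serotonin-making enzyme, was positive in 29 of 130 and 19 of 88 chromogranin-high cells of suffix 2 and suffix 1, Tac1, the tachykinin precursor, in 35 and 30, Cck, the cholecystokinin gene, in 26 and 11, and Ghrl, the ghrelin gene, in 12 and 13. No lymphocyte-like cell was positive for any of these except 1 for Cck in suffix 1. The other hormones had under 10 positive cells in at least 1 suffix and were not compared. They were Gip in 25 and 4 cells, Sct in 19 and 9, Gcg in 4 and 4, Sst in 3 and 3, Iapp in 2 and 1, Nts and Pyy in 2 and 0 each, and Gal in 0 of both.

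In Tph1-positive cells 3 of the 9 genes were higher and 1 was lower than in the other chromogranin-high cells, where 4.2% of 7600 genes were higher and 2.66% lower. Lmx1a had 589 and 421 CPM in Tph1-positive cells, against 4.36 and 19.7 CPM in the rest, ratios of 135 (64.3 to 341) and 21.3 (12.7 to 37.9). It was detected in 26 of 29 and 19 of 19 Tph1-positive cells, against 6 of 101 and 9 of 69 others. Fev had 1379 and 1289.8 CPM in Tph1-positive cells, against 245 and 337 CPM, ratios of 5.62 and 3.83. Insm1 had ratios of 2.77 and 2.51. Isl1 had 5 and 0 UMIs in the Tph1-positive cells, or 16.4 and 0 CPM, against 461 and 512 CPM in the rest, a ratio of 0.0355 (0.0115 to 0.0833) in suffix 2.

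The gap changed in part when the comparison was kept to chromogranin-high cells of the enteroendocrine-like clusters, an alternative added after the data were seen. There 1 of the 9 genes was higher in Tph1-positive cells and 2 were lower, where 2.49% of 5256 genes were higher and 2.95% lower. Lmx1a kept ratios of 77.8 and 14.2, and Isl1 had 16.4 and 0 CPM against 1396 and 1419 CPM. Pax6 was lower at 203 and 79.4 CPM, against 521 and 240.2 CPM, ratios of 0.390 and 0.330. Fev came to ratios of 1.86 and 1.48, under the limit of 2, and Insm1 to 0.912 and 0.896.

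Tac1-positive cells, which overlap with the Tph1-positive ones, gave a like split. Lmx1a was higher at 528 and 264 CPM, against 2.56 and 11.8 CPM, and Fev was higher at 1315 and 845 CPM, against 229 and 365 CPM. Isl1 was lower at 164 and 18.4 CPM, against 439.6 and 639 CPM, ratios of 0.374 and 0.0287. With cells called Tac1-positive from 3 UMIs, the ratio in suffix 2 was 0.871 (0.717 to 1.05), which ends that call. These 2 higher and 1 lower stand beside 2.34% of genes higher and 1.2% lower. In the enteroendocrine-like clusters alone Lmx1a had ratios of 257 and 18.9 and Isl1 of 0.117 and 0.0161, beside 2.47% of genes higher and 2.47% lower, while Fev came to 1.79 and 1.41.

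In Cck-positive cells Pax6 and Isl1 were higher and Neurog3 was lower, where 2.04% of genes were higher and 0.803% lower. Pax6 had 737 and 388 CPM there, against 89.5 and 54.4 CPM, ratios of 8.23 (6.60 to 10.3) and 7.13 (4.84 to 10.5), and was detected in 25 of 26 and 9 of 11 Cck-positive cells. Isl1 had 1082 and 915 CPM, against 282 and 311 CPM. Neurog3 had 4 and 3 UMIs in the Cck-positive cells, 15.5 and 19.1 CPM, against 52.6 and 86.8 CPM. When only the enteroendocrine-like clusters were used, Pax6 kept ratios of 2.88 and 7.55 and Neurog3 of 0.103 and 0.280, beside 1.24% of genes higher and 0.856% lower, and Isl1 had 1.34 and 2.46.

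In Ghrl-positive cells Isl1, Nkx2-2 and Neurod1 were higher and Lmx1a was lower, beside 6.41% and 4.14% of genes. Isl1 had 2293 and 2262 CPM there, against 264 and 186 CPM, and was found in all 12 and all 13 Ghrl-positive cells. Nkx2-2 had 702 and 789.6 CPM, against 163 and 155 CPM, and Neurod1 1472 and 1748 CPM, against 561 and 529.8 CPM. Lmx1a had 0 UMIs in the Ghrl-positive cells of both suffixes, against 187 and 123 UMIs in the rest. Within the enteroendocrine-like clusters Isl1 was higher, with ratios of 3.48 and 7.19, and Fev (0.482 and 0.287), Pax4 (0.214 and 0.424) and Lmx1a (0 UMIs) were lower, beside 2.85% of genes higher and 2.53% lower. There Nkx2-2 had ratios of 1.73 and 2.33 and Neurod1 of 1.05 and 1.65.

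**Figure D3:**
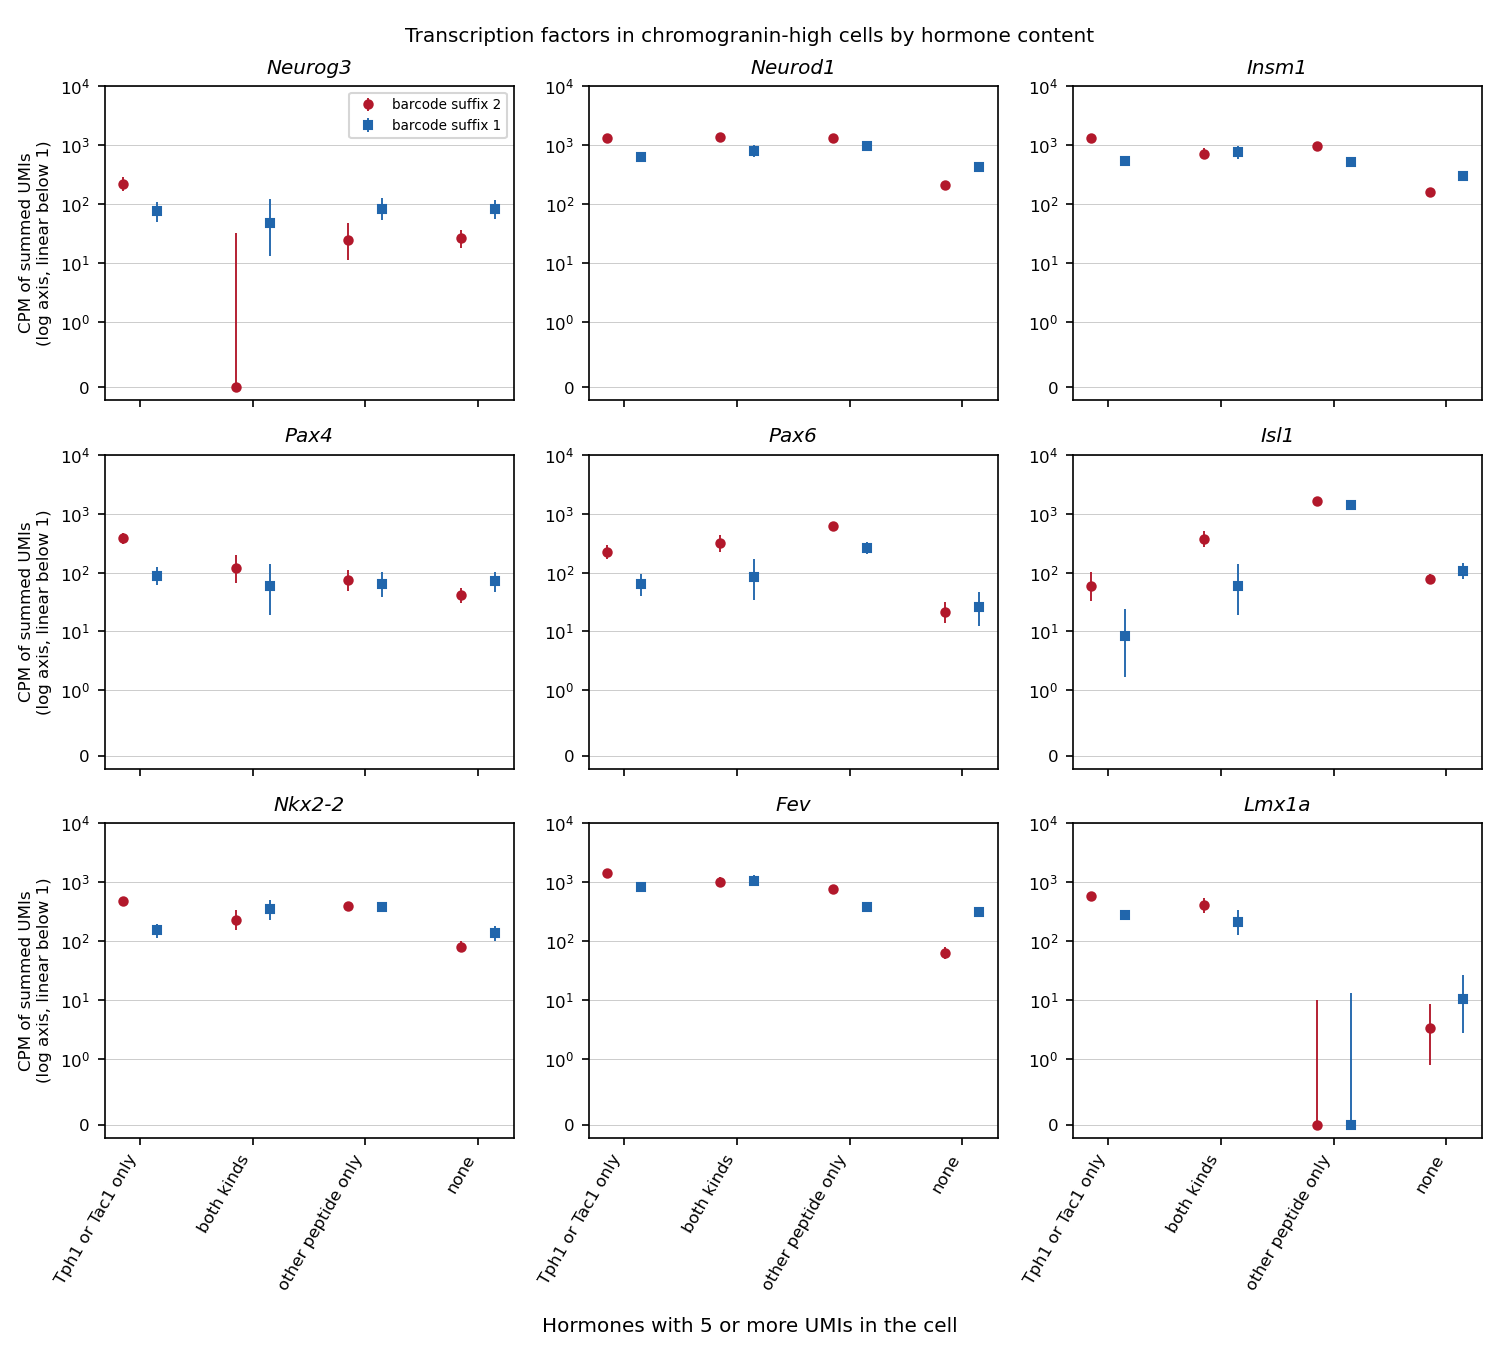
Level of each transcription factor in CPM of summed UMIs (log axis, linear below 1) in chromogranin-high cells grouped by the hormones with 5 or more UMIs, for suffix 2 (circles) and suffix 1 (squares) with exact 95% Poisson intervals. Isl1 stands at 1636 and 1412 CPM in cells with other peptide hormones only, where Lmx1a had 0 UMIs, and Lmx1a at 579 and 279 CPM in cells with Tph1 or Tac1 only.

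Put together by hormone content, 25 and 26 cells were positive for Tph1 or Tac1 and no other hormone, 42 and 25 for another peptide hormone only, 11 and 5 for both kinds and 52 and 32 for none. Isl1 had 60.05 and 8.30 CPM in the cells with Tph1 or Tac1 only, and Lmx1a had 579 and 279 CPM. In the cells with another peptide hormone only Isl1 had 1636 and 1412 CPM and Lmx1a 0 UMIs in both suffixes. In the cells with both kinds Lmx1a stood at 412 and 215 CPM and was found in 8 of 11 and 4 of 5 cells. Isl1 stood there at 369 and 59.7 CPM but was found in 2 of 11 and 1 of 5 cells. Of the cells with no listed hormone only 13 and 9 lay in the enteroendocrine-like clusters.

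Lmx1a and Isl1 were seldom found in the same cell. Of the 32 and 28 chromogranin-high cells with a Lmx1a UMI, 3 (9.38%, 1.98 to 25.02%) and 2 (7.14%, 0.877 to 23.5%) also had an Isl1 UMI, against 51 of 98 (52.0%, 41.7 to 62.2%) and 28 of 60 (46.7%, 33.7 to 60%) without Lmx1a. Within the enteroendocrine-like clusters the shares were 3 of 30 and 2 of 23 with Lmx1a, against 48 of 61 and 22 of 29 without it. The intervals are exact Clopper-Pearson ones, and those with and without Lmx1a did not overlap in either suffix. This pair was the only one of 36 whose co-detection was lower in both suffixes, in each direction of asking. How often other pairs of genes are lower was not counted.

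For the other pairs, co-detection depended on which cells were counted. Over all chromogranin-high cells 34 of 72 ordered pairs had a higher share with the partner than without it, with intervals apart in both suffixes, and 36 had neither a higher nor a lower one. Within the enteroendocrine-like clusters only Neurog3 and Pax4 remained so, asked from either gene, which makes 2 of the 72, and 68 were neither higher nor lower. Over all chromogranin-high cells Pax4 was found in 18 of 23 cells with Neurog3 in suffix 2 and 17 of 28 in suffix 1, against 30 of 107 and 9 of 60 without Neurog3. All these cells and genes share 1 library per suffix, and deeper cells detect more genes. The 34 pairs include the 75 chromogranin-high cells outside those clusters, where 25 of 39 and 7 of 36 held none of the 9 genes. No share over other pairs of genes was taken, so the counts cannot be set against it.

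**Figure D4:**
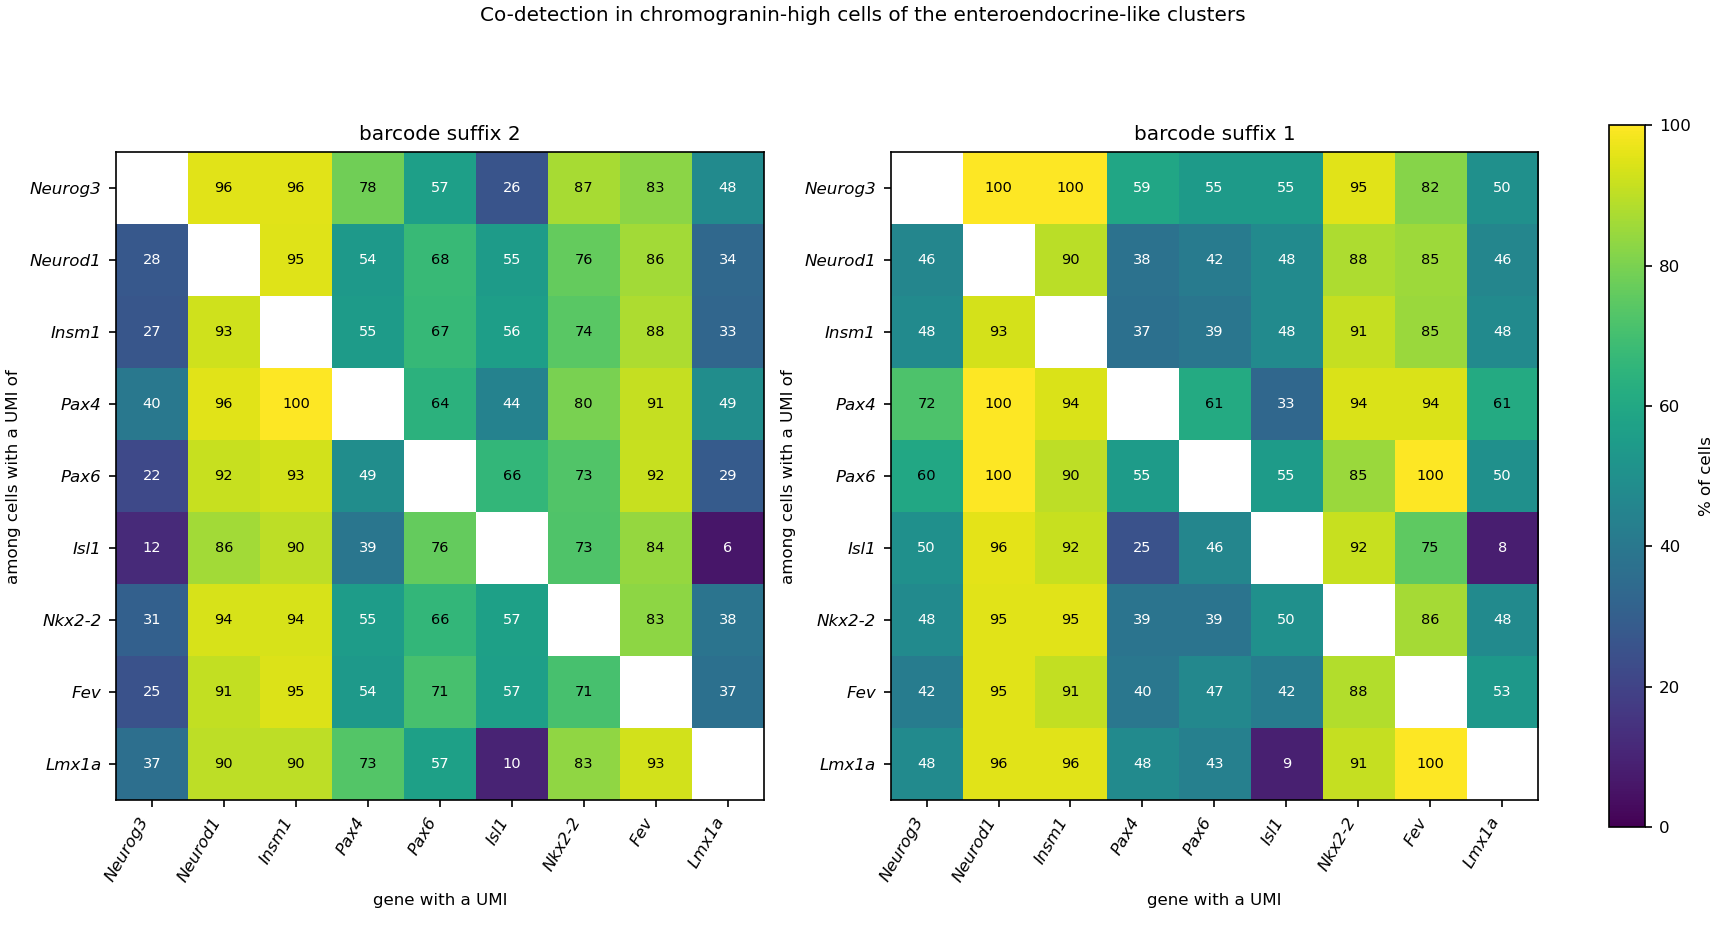
Percent of chromogranin-high cells of the enteroendocrine-like clusters with a UMI of the gene in the column, among those with a UMI of the gene in the row, for suffix 2 (left) and suffix 1 (right). The pair of Isl1 and Lmx1a has the lowest values in both panels, 10% or less in each direction.

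A further 10 cells of suffix 2 and 14 of suffix 1 held 2 or more Neurog3 UMIs without passing the chromogranin gate, and they carried 62 of the 69 and 77 of the 83 Neurog3 UMIs found outside it. Of them 8 and 9 lay in the enteroendocrine-like clusters. Their median chromogranin count was 1 and 0, and none was positive for any listed hormone, which allows up to 30.8% and 23.2% by the exact interval. This holds for cells below the gate only. Inside it, 16 of 23 and 22 of 28 cells with a Neurog3 UMI were positive for a listed hormone, against 62 of 107 and 34 of 60 without. The cells without one lay less often in those clusters, 68 of 107 and 30 of 60, against 23 of 23 and 22 of 28. Every hormone-positive chromogranin-high cell of suffix 2 lay in those clusters. Within them 16 of 23 cells with Neurog3 were positive in suffix 2, against 62 of 68 without. For suffix 1 this was not taken within the clusters. Because the 75 chromogranin-high cells outside those clusters carry these genes at lower levels, values are set here against the chromogranin-high cells inside them, a choice made after the data were seen. Insm1 had 1099 and 1148 CPM in the Neurog3 cells below the gate, against 1112 and 913 CPM, ratios of 0.988 (0.829 to 1.17) and 1.26 (1.07 to 1.47). Against all chromogranin-high cells its ratios were 2.26 and 2.50. It was found in 10 of 10 and 13 of 14 Neurog3 cells. Nkx2-2 had 308 and 341 CPM, against 449 and 436 CPM, ratios of 0.686 and 0.782, which turn to 1.57 and 1.56 against all chromogranin-high cells. Neurod1 was lower at 476 and 519 CPM, against 1413 and 1209 CPM, ratios of 0.337 and 0.429. Pax6, Fev and Lmx1a had 0 UMIs in these cells in both suffixes, and Isl1 had 2 in each.

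Of other genes of early secretory cells, Sox4 and Dll1 are named for their size after their values were seen. Sox4, an early regulator of the lineage in mice, had 1547 and 1580 CPM in these Neurog3 cells, against 331 and 388 CPM in the chromogranin-high cells of the enteroendocrine-like clusters, ratios of 4.67 and 4.07. Dll1, a Notch ligand of secretory progenitors, had 210.0 and 255 CPM, against 51.6 and 26.8 CPM, ratios of 4.07 and 9.50. The progenitor list holds Dll1 but not Sox4. Hes6 of that list went the same way by less, with ratios of 1.51 (0.961 to 2.31) and 1.69 (1.04 to 2.73). Others of it did not. Dll4 had ratios of 0.479 and 0.606, the Notch target Hes1 0.898 and 1.03, and Atoh1 1 UMI in each suffix. Spdef, a goblet and Paneth factor, had 0 and 4 UMIs. Counting all 9 genes, 41 cells of each suffix held 2 or more UMIs of at least 1 gene outside the gate. Lmx1a gave no such cell, and Pax6 gave 1 in each suffix.

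Between the libraries, the chromogranin-high cells of suffix 2 were higher than those of suffix 1 in Pax6 and lower in Neurog3. Here a ratio of at least 1.5 in either direction was asked for, with its interval off 1, and by that rule 5.49% of 10057 genes were higher and 8.64% lower. Pax6 had 338 and 113 UMIs, a ratio of 1.74 (1.40 to 2.17). Neurog3 had 91 and 86 UMIs, a ratio of 0.616 (0.454 to 0.837). The other 7 had ratios between 0.772 (Fev) and 1.26 (Pax4).

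These ratios moved with which cells were counted. In the enteroendocrine-like clusters alone, with 91 and 52 cells, Pax6 was at 404 and 163 CPM, a ratio of 2.49 (1.95 to 3.19), and Pax4 at 211 and 128 CPM, a ratio of 1.65 (1.24 to 2.22). Neurog3 was at 109 and 144 CPM, a ratio of 0.761 (0.554 to 1.05). In that set 4.73% of 8504 genes were higher and 4.21% lower. With the gate raised to 10 UMIs, 88 and 77 cells, all genes but Neurog3 were higher in suffix 2, with ratios between 1.54 (Fev) and 3.60 (Pax6), where 12.9% of genes were higher and 9.83% lower. With the gate lowered to 3 UMIs, 6 genes were lower, where 7.37% of genes were lower and 4.91% higher. Pax6 had the highest ratio of the 9 in all these sets, between 1.17 and 3.60. It was also higher in suffix 2 in the cells outside the gate, with 50 and 29 UMIs, a ratio of 1.82 (1.13 to 2.99). Fev (1.86) and Lmx1a (2.51, 19 and 8 UMIs) were higher there too, and the other genes were not apart. The share over all genes was not taken outside the gate.

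**Figure D5:**
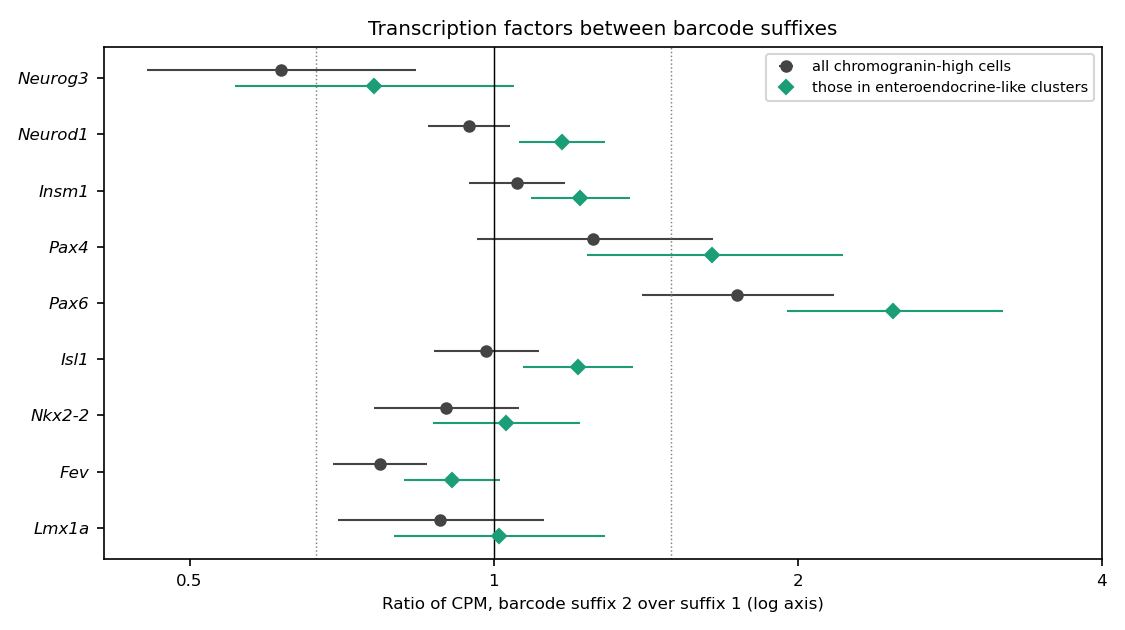
Ratio of CPM, barcode suffix 2 over suffix 1, for each transcription factor (log axis) with exact 95% intervals for counting error, in all chromogranin-high cells (circles) and in those of the enteroendocrine-like clusters (diamonds). Dotted lines mark ratios of 1.5 in either direction. Pax6 lies at 1.74 and 2.49, above the upper line in both sets.

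Other genes moved between the suffixes in the same cells. Of 11 hormones measured between the suffixes, 4 were higher in suffix 2 (Gip, Gcg, Nts and Pyy) and 1 was lower (Sst). Gip stood at 6412 CPM, against 1409 CPM in suffix 1, a ratio of 4.55. A Gip UMI was also found in 37.7% and 6.65% of the cells outside the gate. Sst had a ratio of 0.660, with 3 positive cells in each suffix. Of 10 immediate early genes, which respond to cell handling among other things, 4 were lower in suffix 2 (Atf3, Dusp1, Fosb and Nr4a1, ratios of 0.48 to 0.55). Within the hormone groups the Neurog3 ratio turned. It was 2.93 (1.80 to 4.86) in cells with Tph1 or Tac1 only, 0.298 (0.122 to 0.669) in cells with another peptide hormone only and 0.316 (0.186 to 0.534) in cells with none. Pax6 had ratios of 3.51 (2.11 to 6.003), 2.33 (1.78 to 3.08) and 0.848 (0.395 to 1.97) in the same groups. The other genes moved too. With Tph1 or Tac1 only, the ratios ran between 1.77 (Fev) and 7.24 (Isl1, 14 and 3 UMIs). With another peptide hormone only they ran between 0.298 (Neurog3) and 2.33 (Pax6), Lmx1a having 0 UMIs. With none, they ran between 0.203 (Fev) and 0.848 (Pax6). The share over all genes was not taken in these groups. The groups also differ in make-up between the suffixes. Cells in the enteroendocrine-like clusters were 25 of 25 and 19 of 26 with Tph1 or Tac1 only, and 42 of 42 and 20 of 25 with another peptide hormone only. With none they were 13 of 52 and 9 of 32, at a median depth of 24554 and 10492 UMIs. The part of handling in these values was not tested.

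Among 30 further regulators of the lineage, 22 were measured and 18 were higher in chromogranin-high cells, 0 lower. Peg3, an imprinted zinc finger gene, had 211 and 238 CPM there, against 0.449 and 0.531 CPM. Etv1 had 45.5 and 36.8 CPM, against 0.0224 and 0.0637 CPM. Onecut3 was also among the genes with the highest bounds, as was Rfx6, a factor of endocrine differentiation, which stood at 255 and 229 CPM, against 2.29 and 1.70 CPM. The 4 measured regulators called neither way were Foxa1, Mlxipl, Pdx1 and Tcf4, and Foxa1, named after its values were seen, had ratios of 1.90 and 2.31.

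All 16 measured genes of granules and prohormone processing were higher, led by Rab3c, Chgb, Cpe, Scg3 and Scg2. Chga and Chgb set the gate, so their levels are no finding. Of 12 hormones 9 were measured and all 9 were higher. Of 11 measured secretory progenitor genes only Mfng and Dll4, a Notch modifier and a Notch ligand, were higher and Spdef was lower at 6.80 and 1.80 CPM, against 35.4 and 17.6 CPM. None of the 10 immediate early genes was called, and their median log2 ratios were 0.46 and 0.43.

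The gene most like each member was taken by Pearson r of log2(CPM + 1) over 20 points, which were the classes and the chromogranin-high cells with and without Tph1 in both suffixes, among 10057 genes. Neurog3 was most like Myt1 (r = 0.990), then Gng4 and Neurod2. Neurod1 was most like Myt1 (0.993), then Syt13 and Cadps. Insm1 was most like Neurod1 (0.972), then Neurog3 and Kcnb2. Pax4 came nearest to Gfra3 (0.990), Scg5 and Adgrg4, and Pax6 to Slc8a1 (0.986), Cadps and Rfx6. Isl1 came nearest to Etv1 (0.978), Ffar1 and Serpina1d, and Nkx2-2 to Shc2 (0.983), Gnao1 and Rtn2. Fev came nearest to Chgb (0.988), Neurod2 and Cdk5r2, while Lmx1a came nearest to Tac1 (0.988), Tph1 and Rab3c. The 20 points share 2 libraries and the same chromogranin-high cells, so r is a description only. Chgb is part of the gate and Tph1 split the chromogranin-high cells. A high r with either gene was thus partly set by the choice of points.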

How the data were processed

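Both samples are single-cell RNA libraries. The authors deposited raw UMI counts per gene and barcode as 1 matrix, made with Cell Ranger 2.1.1 on mm10 per the submitters' processing notes. The sources used here do not give the rule for calling cells. The barcodes are 27 bases long although a V3 droplet kit is named, which leaves the chemistry unsettled.

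A filter of 500 or more genes and no more than 25% mitochondrial UMIs, with doublet removal, kept 7768 of 12756 barcodes. Scrublet in scanpy 1.11.5 (Python 3.11.15, scipy 1.17.1) marked 16 doublets, which were removed. So few calls are not relied on, and doublets may remain. Counts were scaled to 10000 per cell, and 20 Leiden clusters were built on 2000 variable genes, 30 components and 15 neighbours. A cluster was named only from fixed marker lists, and clusters without leading markers of their own stayed unnamed. Of the named clusters 3 were shallow but had a marker of their own among the leading genes, among them 1 of the stem-like clusters (median 1054 UMIs). CPM are summed UMIs of a class per 1000000 of its UMIs. Ratios carry exact conditional Poisson intervals, shares exact binomial ones, and the floor is 3 counts. Genes with at least 20 UMIs in the 2 sets of cells together were measured, in each suffix. With 1 library per group there is no test of treatment. The scripts were tested on simulated data.

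All 9 members were named, with up to 5 genes of each list by the bound nearest to 1, all hormones, and the 3 genes most like each member. The members and lists were chosen with earlier results of these data known. A result on 1 withheld item is not reported here.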

Additional observations from a re-analysis of the deposited data

Results flagged for a closer look

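Barcodes removed by the cell filter also held these transcripts. Among the 2723 removed barcodes of suffix 2, 18 had 5 or more chromogranin UMIs and carried 46 UMIs of the 9 transcription factors, 11 of them Isl1 and 10 Insm1. Among the 2265 removed barcodes of suffix 1, 14 did so and carried 39 UMIs, 8 each of them Pax6 and Fev. Neurog3 had 0 UMIs in both sets. These barcodes enter no comparison above, and counts above 0 in data left out of the comparisons are what singled them out. Their median depth was 1872 and 783 UMIs, with 29.7% and 26.7% mitochondrial UMIs.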

How the results depend on the processing

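All 9 genes stayed higher in the chromogranin-high cells, and highest of the 9 classes plotted, under every alternative run: gates of 3 and 10 UMIs, no cell filter, a stricter filter, thinning, removal of cells with high doublet scores or markers of another lineage, means over cells, and other clusterings. Of these ratios, 70 values under the alternatives lay beyond the main interval and 92 within it. The share of all genes highest in the chromogranin-high class was not taken. The number of genes apart between the suffixes was 2 in the main comparison, where 5.49% of genes were higher and 8.64% lower. With a gate of 3 it became 6, all lower in suffix 2, where 4.91% of genes were higher and 7.37% lower. With a gate of 10 it became 8, all higher, where 12.9% were higher and 9.83% lower. It became 6 without the 49 chromogranin-high cells holding markers of another lineage (39 and 10). The share over all genes was not taken in that last set. The Neurog3 ratio, 0.616 in the main comparison, turned to 1.10 with the gate of 10 and to 1.15 without those 49 cells. Of the 14 gene and hormone pairs apart, 9 remained in number with a gate of 10. Insm1 in Tph1-positive cells turned to 0.912 and 0.896 in the enteroendocrine-like clusters, an alternative added after the data were seen. Co-detected pairs fell in number to 20 of 34 after thinning and to 2 in those clusters. The 82 cells with 2 or more UMIs of a gene outside the gate became 887 at 1 UMI and 50 at 3 UMIs. Beyond fewer cells or counts, the cause was not tested. Depth limits the genes at 0: the tuft-like and lymphocyte-like classes allow 3.30 to 7.53 CPM. No paired analysis was possible because each group is 1 library.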
